A study of Oryza sativa with 16 samples.

Results

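The comparison set seedlings of H49, a transgenic rice line that over-expresses OsHOX24, beside wild-type (WT) rice under well-watered conditions, and covered 4 of the 8 chromatin immunoprecipitation sequencing (ChIP-seq) libraries that have a summit list. All 4 libraries came from seedlings 3 weeks old that were kept in water for 3 h as the control treatment, 2 libraries per genotype. H49 carries extra OsHOX24 from its transgene on top of the native gene; no source at hand names the promoter that drives the transgene, and a single transgenic line stands for over-expression. WT carries the native gene alone, so that it is no background without the antigen. The seedlings had been grown in hydroponics, their chromatin was recovered with an anti-OsHOX24 antibody, and no label ties a replicate to its own plants.

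OsHOX24 belongs to subfamily I of the homeodomain-leucine zipper (HD-Zip) proteins, a family of transcription factors found in plants. The homeodomain contacts DNA, and the leucine zipper next to it joins a pair of the proteins into a dimer, which recognises a short, nearly palindromic site. Several subfamily I members respond to water deficit and to abscisic acid, the hormone of drought responses, and OsHOX24 itself is a gene whose transcripts rise in desiccated rice seedlings. The control seedlings thus show where the antibody recovered chromatin before such a stress, in plants with the native gene and in a line made to over-express it. Summit lists hold no expression values, so the over-expression itself was not checked.

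A summit is the position in a peak where the enrichment is highest. The 4 lists held 20152 summits, of which 20127 lay on the 12 nuclear chromosomes and were used. Summits of the 4 lists that lay up to 200 bp apart were merged into 13827 regions, and a region was called in a library that had at least 1 of its summits there. Regions are given in coordinates of the rice genome sequence MSU version 7, from 100 bp before their first summit to 100 bp after their last. Of the 13827 regions, 755 were called in all 4 libraries (5.46%) and are named shared regions. A further 163 (1.18%) were called in both H49 libraries and in neither WT library, and are named H49-only regions. The WT-only regions, called in both WT libraries and in neither H49 library, numbered 252 (1.82%). Most regions, 9963 (72.1%), were called in 1 library alone.

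Each summit carries the −log10 of the p-value given by the authors' peak caller, a value that grows with sequencing depth. It is therefore read within a list and not compared in size between libraries. Read depth is unknown, so a region missing from a list was not called there, which does not show that it was unbound. With 2 libraries against 2 the smallest two-sided exact permutation p is 0.333, so no test between the genotypes was made.

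The lists on the nuclear chromosomes held 9345 and 3166 summits in WT control replicates 1 and 2, and 4236 and 3380 in H49 control replicates 1 and 2. WT replicate 1 was the longest list and WT replicate 2 the shortest, so both H49 lists lay between the WT lists. The ratio of H49 to WT, taken from geometric means, was 0.696, and it turned to 1.195 without WT replicate 1. The highest −log10 p of a list was 335 and 291 in WT and 105 and 413 in H49. H49 replicate 1 thus had the lowest ceiling of the 4 lists and H49 replicate 2 the highest. The medians were close, at 7.11 and 7.04 in WT and 6.37 and 7.81 in H49. WT replicate 1 had the largest share of regions called in no other control library, 65.8%, against 31.8% to 38.6% in the other 3 libraries.

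The strongest regions of control seedlings were mostly called in both genotypes. Among the 100 regions with the highest −log10 p of a list, 87 in WT replicate 1, 95 in WT replicate 2, 88 in H49 replicate 1 and 98 in H49 replicate 2 were called in all 4 libraries. None of the 100 strongest regions of any list was one-sided, that is, H49-only or WT-only. Among ranks 101 to 500 the shared regions still made up 55.5% to 71.3% of a list, and among ranks 1001 to 2000 they made up 13.2% to 19.6%. One-sided regions took 1.25% to 4.5% of ranks 101 to 500 in the 4 lists and 4.4% to 8.9% of ranks 1001 to 2000.

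**Figure D1:**
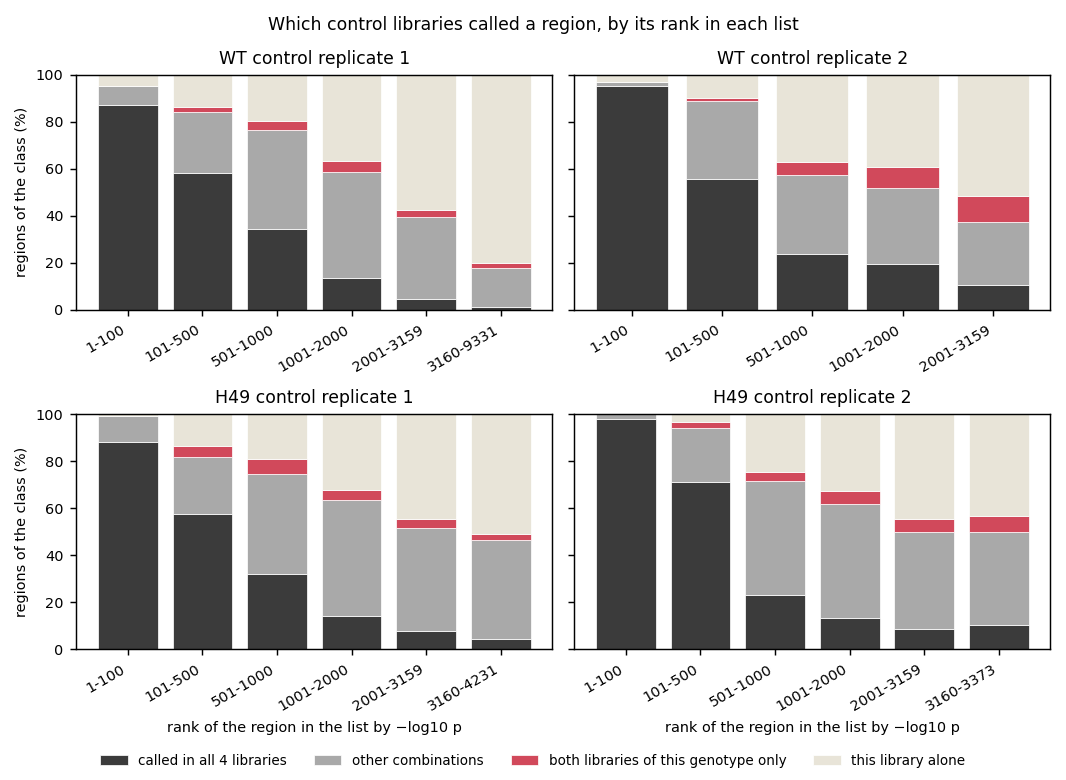
Regions of each control list grouped by their rank by −log10 p (x axis) and the percentage of each rank class that was called in all 4 libraries, in other combinations, in both libraries of that genotype only, or in that library alone (y axis, stacked bars). Shared regions fill 87% to 98% of the first 100 ranks and shrink below them, and the one-sided part is absent from those first 100 ranks.

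The shared regions named here are the 8 whose poorest rank over the 4 lists was best, an order that does not depend on the size of the values. The first was Chr9:21917061-21917291, with −log10 p of 248 and 291 in WT and 91.6 and 413 in H49, ranked 2, 1, 4 and 1 in the 4 lists. All 4 summits of that region lay within 30 bp. Chr12:1793329-1793549 followed, with 220 and 194 in WT and 105 and 328 in H49. Chr2:21093489-21093711 had 230 and 246 in WT and 80.1 and 338 in H49. Within its own list, each of these 3 regions ranked 9 or better in all 4 libraries.

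Chr3:5944471-5944732 was the top region of WT replicate 1, at 335, and had 230 in WT replicate 2 and 79.5 and 289 in H49. Chr6:28401345-28401573 and Chr6:28400635-28400845 lie side by side and had 180 and 214, and 160 and 211, in WT. In H49 the former had 76.3 and 309 and the latter 66.9 and 311. The last of the 8 were Chr1:36261844-36262161, with 119 and 149 in WT and 85.9 and 264 in H49, and Chr9:19114076-19114324, with 155 and 146 in WT and 97.1 and 265 in H49. All 8 named regions were also called in all 4 desiccation libraries, and all 8 stayed in the shared set under 5 alternative settings that use the control lists alone. These were merging at 100 bp, merging at 500 bp, equal numbers of the strongest summits, a −log10 p of at least 5, and the upper 50% of each list. Because the 8 regions were chosen by rank, only merging at 100 bp could have removed them. By rank within the lists, both H49 libraries were ahead of both WT libraries in 3 of the 8 regions (Chr12:1793329-1793549, Chr1:36261844-36262161 and Chr9:19114076-19114324), both WT libraries were ahead in 1 (Chr3:5944471-5944732), and the ranks overlapped in the other 4. The lists differ in length, so these ranks show no change in binding.

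**Figure D2:**
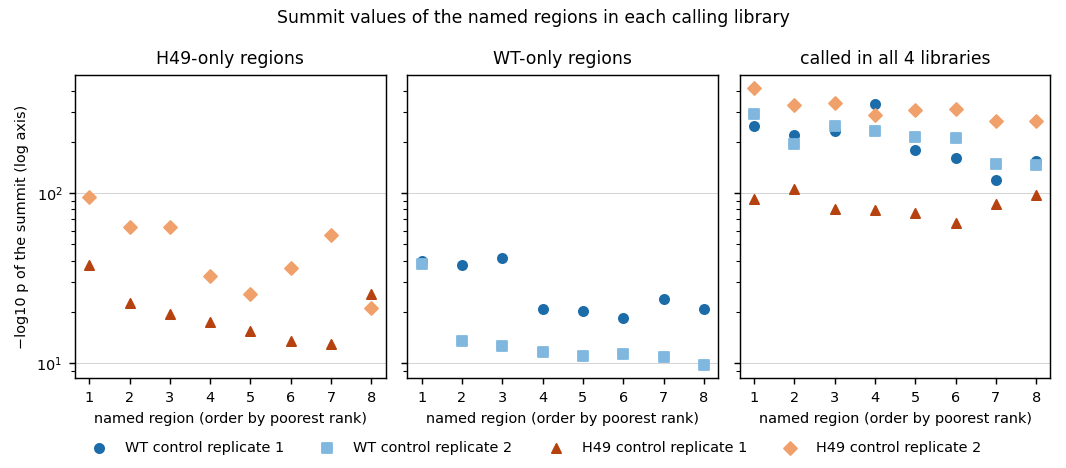
The −log10 p (y axis, log scale) of the 8 named regions of each set (x axis) in the control libraries that called them, with 1 point per library. Shared regions range from 66.9 to 413, H49-only regions from 12.9 to 94.1 and WT-only regions from 9.75 to 41.4. Heights are read within a library, since the scale differs between libraries.

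Across the whole shared set the values were lower than in those 8. The median −log10 p of the 755 regions was 22.3 in WT replicate 1, 12.4 in WT replicate 2, 12.03 in H49 replicate 1 and 28.4 in H49 replicate 2. The quartiles ran from 13.3 to 43.9, from 6.87 to 69.7, from 7.68 to 24.2 and from 8.47 to 81.2 in the same order. The replicate 2 libraries of both genotypes had the wider spread. A high rank in every library was less common: 27 shared regions were in the top 100 of all 4 lists, 224 in the top 500 and 325 in the top 1000.

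Summits of shared regions lay about as far apart between the genotypes as between replicates. Merging summits up to 200 bp apart limits these distances by construction. In the 740 shared regions with 1 summit per library, the median distance between summits was 31 bp for the H49 replicates and 37 bp for the WT replicates. Between libraries of different genotypes it was 31.5 to 35 bp, within the range of the replicates. The 90th percentile was 158 bp for the H49 replicates, 173 bp for the WT replicates and 160 to 171 bp between genotypes. The median signed displacement between any 2 libraries was between −2 and 2 bp. The median distance between genotypes was thus no larger than that between the WT replicates.

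The order of the shared regions by −log10 p was also compared, ranking the same 755 regions in every library. Rank correlations (Spearman's rho) were 0.73 for the WT replicates and 0.72 for the H49 replicates, and 0.75 to 0.84 for the 4 pairs of different genotypes. These points share their libraries and are no independent samples. The highest, 0.84, joined WT replicate 2 with H49 replicate 2. In 81 regions (10.7%) both H49 ranks were better than both WT ranks, and in 94 (12.5%) both WT ranks were better. The median gap between the poorer rank of the leading genotype and the better rank of the other was 36.5 and 31 ranks in these regions. Over all 755 regions the median rank difference was 95 between the WT replicates and 99 between the H49 replicates, and 78.5 to 84 for the pairs of different genotypes. A gap of more than 100 ranks was found in 18 regions ranked better in H49 and 16 ranked better in WT.

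The region with the widest gap in favour of H49, chosen after its values were seen, was Chr6:5117900-5118369. Its −log10 p was 7.23 and 4.23 in WT, ranks 715 and 728.5 among the 755, and 15.5 and 82.2 in H49, ranks 294.5 and 186. It was near the bottom of the shared set in both WT libraries and in the upper part in both H49 libraries. In the opposite direction the widest gap was that of Chr9:16458570-16458859, also chosen after its values were seen. It had 25.2 and 14.1 in WT, ranks 328 and 359, against 5.87 and 7.42 in H49, ranks 664.5 and 608.5. Here the H49 ranks were the poorer ones in both libraries.

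Of the 1383 regions that both H49 libraries called, 755 (54.6%) were called in both WT libraries and 465 (33.6%) in 1 of them. The remaining 163 H49-only regions made up 11.8%. Of the 1435 regions that both WT libraries called, 428 (29.8%) were called in 1 H49 library and 252 (17.6%) in none. In whole lists H49 thus had neither more regions called in both libraries nor more one-sided regions than WT. Leaving out a library loosens the rule for a one-sided region, so the counts rise by construction. All 163 H49-only and all 252 WT-only regions stayed in their sets each time, also by construction, so that this is no sign of stability. With 1 library standing for its genotype, H49-only regions numbered 507 without WT replicate 1, 278 without WT replicate 2, 1277 without H49 replicate 1 and 1739 without H49 replicate 2. WT-only regions numbered 1514, 6414, 443 and 479 in the same order.

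The H49-only regions were weak on the whole. Their median −log10 p was 7.29 in H49 replicate 1 and 7.03 in H49 replicate 2, close to the medians of all regions of those lists (6.39 and 7.83) and below those of the shared regions. Only 4 of the 163 were in the top 500 of both H49 lists, against 224 of the 755 shared regions in the top 500 of all 4 lists. The median distance between the H49 summits was 66 bp in H49-only regions and 31 bp in shared regions, and 41.1% against 63.4% lay within 50 bp of each other.

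The H49-only region with the best ranks was Chr12:20704851-20705058, with −log10 p of 37.5 and 94.1 in H49 replicates 1 and 2 and summits 7 bp apart. The nearest WT control summit was 2511 bp away, yet both WT desiccation libraries called the region, at 15.1 and 80.6, as did H49 desiccation replicate 1, at 43.2. The region was thus missing from the WT control lists but not from the other WT lists. Chr12:20527280-20527557 had 22.3 and 62.7 in H49, no WT control summit within 4961 bp, and no call in any desiccation library. Chr4:8234559-8234779 had 19.3 and 62.9, and its nearest WT control summit was 32632 bp away. It was called in H49 desiccation replicate 1, at 18.6, and in no other desiccation library. Chr12:13524307-13524516 showed the same calls, with 17.4 and 32.5 in control and a summit of 13.8 in H49 desiccation replicate 1, and a distance of 79256 bp to the nearest WT control summit.

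The other named H49-only regions ranked lower. Chr2:15453209-15453462 had 12.9 and 56.7 in control and a summit of 21.0 in H49 desiccation replicate 1, with a WT control summit no nearer than 32814 bp. Chr2:30285649-30285943 had 13.4 and 36.1 and no desiccation call, with the nearest WT control summit at 1777 bp. Chr9:4704175-4704419 had 15.5 and 25.4, but a WT control summit lay 440 bp away. Under desiccation the region was called in WT replicate 2, at 35.8, and in H49 replicate 1, at 14.1. Chr4:13468153-13468439 had 25.3 and 21.1, with a WT control summit 394 bp away. With summits up to 500 bp apart merged, Chr9:4704175-4704419 and Chr4:13468153-13468439 were no longer H49-only, while the other 6 stayed so under the same 5 alternative settings. That excludes the settings with fewer summits described further on: with the top 500 summits of each list Chr2:30285649-30285943 and Chr2:15453209-15453462 were not in the set. Of the 5 settings, only the merging distances could have removed regions chosen by rank.

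The WT-only regions were weak as well, with a median −log10 p of 7.86 in WT replicate 1 and 5.89 in WT replicate 2, against 7.11 and 7.05 for all regions of those lists. Only 1 of the 252 was in the top 500 of both WT lists. A value below 5 was found in 25.4% of them in WT replicate 2, against 18.6% of all regions of that list. In WT replicate 1 the order was the opposite, 13.9% against 18.5%. The WT summits lay a median of 78.5 bp apart in these regions and 38 bp apart in shared regions.

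That single strong WT-only region was Chr11:22328748-22328949, with 39.8 and 37.9 in WT replicates 1 and 2 and summits 1 bp apart. No H49 control summit lay within 18279 bp. Under desiccation it was called in both WT libraries, at 7.53 and 21.4, and in H49 replicate 2, at 13.02, so that it was not missing from all H49 lists. Chr5:16150732-16151026 had 37.7 and 13.5, with an H49 control summit 498 bp away and calls in 1 desiccation library of each genotype. Chr7:27890224-27890440 had 41.4 and 12.6, an H49 control summit 238 bp away, and a call in WT desiccation replicate 2, at 6.34. Chr7:23784132-23784428 had 20.9 and 11.6, Chr3:1519376-1519684 had 20.3 and 10.98, Chr4:13468668-13468921 had 18.5 and 11.2, and Chr7:28850296-28850576 had 23.8 and 10.8; an H49 control summit lay 230 to 304 bp from each. Under desiccation Chr3:1519376-1519684 was called in WT replicate 2, at 14.7, and in H49 replicates 1 and 2, at 12.9 and 18.5. Chr7:23784132-23784428, Chr4:13468668-13468921 and Chr7:28850296-28850576 had no desiccation call. Chr6:24068959-24069213, with 20.8 and 9.75, had its nearest H49 control summit at 37965 bp and no desiccation call. Of the 8, only Chr11:22328748-22328949 and Chr6:24068959-24069213 stayed WT-only under those 5 alternative settings, since merging summits up to 500 bp apart brought an H49 summit into the other 6. Chr3:1519376-1519684 also left the set with a merging distance of 100 bp, at which its WT summits no longer met. For these 8 regions, too, only the merging distances could have changed membership.

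Many one-sided regions had a control summit of the other genotype within 1000 bp. The nearest WT control summit lay at a median of 497 bp from an H49-only region, within 500 bp in 84 of 163 (51.5%) and within 1000 bp in 119 (73.0%). The nearest H49 control summit lay at a median of 971 bp from a WT-only region, within 500 bp in 81 of 252 (32.1%) and within 1000 bp in 127 (50.4%). Among regions called in a single control library, a summit of the other genotype lay within 1000 bp in 70.9% of those of H49 replicate 1, 38.9% of H49 replicate 2, 25.6% of WT replicate 1 and 35.1% of WT replicate 2. The H49-only share was thus close to that of the regions of H49 replicate 1 alone, but above that of H49 replicate 2 alone. The WT-only share was above those of both WT libraries alone. WT replicate 1, whose list is the longest, accounts for more of these neighbours: it had a summit within 500 bp of 43.6% of the H49-only regions, and WT replicate 2 of 19.6%. Close to the limit itself, 30 H49-only and 26 WT-only regions had the other genotype's summit 201 to 250 bp away. Just inside it, with the nearest summit of the other genotype between 150 and 200 bp away, lay 42 regions called in both H49 libraries and 30 called in both WT libraries. Farther out, 18 H49-only and 64 WT-only regions had no summit of the other genotype within 10000 bp.

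**Figure D3:**
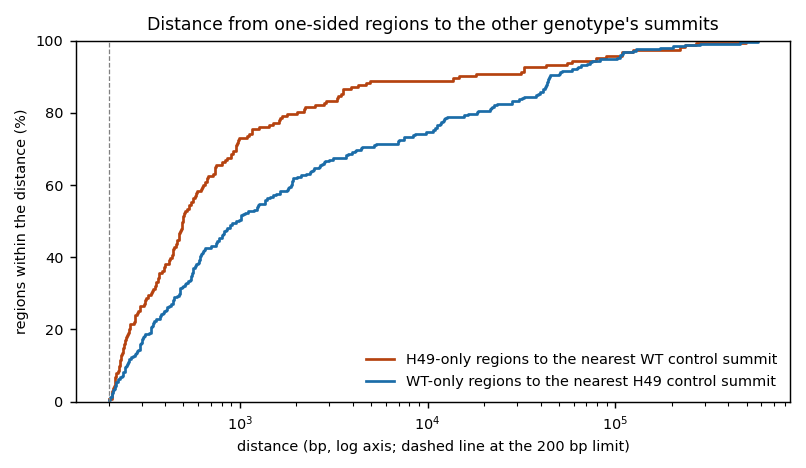
Cumulative percentage of H49-only and WT-only regions (y axis) by distance to the nearest control summit of the other genotype (x axis, bp on a log scale), with the 200 bp merging limit dashed. The H49-only curve reaches 73.0% at 1000 bp and the WT-only curve 50.4%.

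In several places an H49-only region and a WT-only region were neighbours. There were 17 such pairs within 1000 bp, 13 of them within 500 bp and 7 of the 17 on chromosome 4. Of these 7, 2 share a WT-only region. Chromosome 4 held 12.3% of the H49-only, 13.5% of the WT-only and 10.4% of all regions. At Chr4:13468153-13468439 both H49 libraries had a summit (25.3 and 21.1), and 429 bp away at Chr4:13468668-13468921 both WT libraries had one (18.5 and 11.2). At Chr9:1529968-1530173 the H49 values were 12.8 and 43.9, and 225 bp away at Chr9:1529733-1529943 the WT values were 12.99 and 27.3. Whether such a pair lies in the same broad peak was not tested, since the lists give no peak widths. When summits up to 500 bp apart were merged, 73 of the 163 H49-only regions had no WT control summit, 55 were joined by 1 WT library and 35 by both. Of the 252 WT-only regions, 164 had no H49 control summit, 54 were joined by 1 H49 library and 34 by both.

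Because the lists differ in length, the comparison was repeated with equal numbers of the strongest summits from each list, 3166 being the length of the shortest. This turned the order of the one-sided sets. H49-only regions then numbered 194 of 8078 (2.4%) and WT-only regions 129 (1.6%), with 635 shared regions (7.86%). The sets included 123 of the 163 H49-only regions and 107 of the 252 WT-only regions of the whole lists. The −log10 p at which a list ended was 8.89 in WT replicate 1 and 3.01 to 5.05 in the other 3 libraries. Of the 194 H49-only regions, 71 had a summit in the whole list of WT replicate 1, below that limit. Of the 129 WT-only regions, 22 had a summit in the whole list of H49 replicate 1 and 1 in that of H49 replicate 2. Without such regions the sets held 123 and 107. H49-only regions were also the more numerous with the top 500, 1000 and 2000 summits of each list, at 11 against 2, 32 against 22 and 103 against 84. As a share of the regions both libraries of the genotype called, the H49-only set was 16.8% and the WT-only set 12.2% at 3166 summits, against 11.8% and 17.6% in the whole lists. Regions called in both libraries of a genotype numbered 1155 in H49 and 1054 in WT at 3166 summits, against 1383 and 1435 in the whole lists. Which genotype had more one-sided regions, or more regions called in both libraries, therefore depended on whether the lists were taken at equal length.

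**Figure D4:**
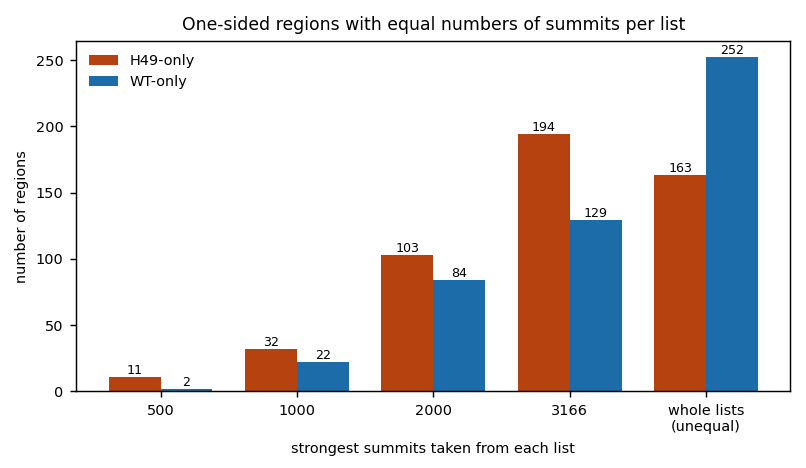
Number of H49-only and WT-only regions (y axis) when the strongest 500, 1000, 2000 or 3166 summits were taken from each list, and with whole lists of unequal length (x axis). H49-only regions outnumber WT-only regions with equal numbers (194 against 129 at 3166) and not with whole lists (163 against 252).

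Likeness between libraries did not follow genotype at equal numbers. With 3166 summits per list the Jaccard index, the number of regions called in both libraries over those called in either, was 0.223 for the H49 replicates and 0.200 for the WT replicates. It was 0.259 for the replicate 1 libraries of WT and H49 and 0.250 for their replicate 2 libraries. With the top 500 summits the replicate 2 libraries had the highest of these 4 values, 0.543. The H49 replicates and the replicate 1 libraries had 0.418 each, and the WT replicates 0.368. Same-numbered libraries of different genotypes were thus at least as alike as replicates of a genotype in both cases. In whole lists the index was 0.222 for the H49 replicates and 0.130 for the WT replicates. There it was 0.199 for the replicate 1 libraries, below the H49 value, and 0.253 for the replicate 2 libraries. Whether a replicate number marks a shared day or batch is not given in the labels.

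The desiccation lists took no part in choosing the regions and give a separate view of them. H49-only regions of control seedlings were found again after desiccation at overlapping rates in WT and in H49. A summit lay within 200 bp of 34 of the 163 regions in H49 desiccation replicate 1 (20.9%, exact 95% binomial interval 14.9% to 27.9%) and of 17 in H49 desiccation replicate 2 (10.4%, 6.19% to 16.2%). In WT desiccation the numbers were 30 in replicate 1 (18.4%, 12.8% to 25.2%) and 17 in replicate 2 (10.4%). Over all 13827 regions the share was 12.2% and 12.4% in the H49 desiccation replicates and 13.4% and 9.93% in those of WT. The H49-only share was thus above that of all regions in both replicate 1 libraries, below it in H49 replicate 2 and close to it in WT replicate 2. Only in H49 replicate 1 did the interval of the H49-only share exclude the share of all regions. Regions called in both H49 control libraries, shared ones included, reached 50.3% and 45.1% in the H49 desiccation replicates. In those of WT they reached 49.4% and 39.8%, so the H49-only shares were lower in every desiccation library. The values of the genotypes overlapped, and these intervals cover counting error only. By genotype, 29 H49-only regions (17.8%) were found under desiccation in H49 alone, 25 (15.3%) in WT alone, 17 (10.4%) in both and 92 (56.4%) in neither. The same shares over all regions were 7.28%, 8.201%, 11.4% and 73.1%.

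WT-only regions gave a like picture. They were called in 47 (18.7%) and 28 (11.1%) of 252 cases in WT desiccation replicates 1 and 2, and in 34 (13.5%) and 40 (15.9%) in the H49 desiccation replicates, so that both H49 values lay between the WT values. Each share exceeded that of all regions in the same library. It was below that of regions called in both WT control libraries, shared ones included. Those reached 45.1% and 41.4% in the WT desiccation replicates and 48.4% and 44.7% in the H49 desiccation replicates. Under desiccation 33 (13.1%) were found in WT alone, 24 (9.52%) in H49 alone, 33 in both and 162 (64.3%) in neither, to be read against the shares over all regions given above. Summits in both desiccation lists of H49 and none in those of WT were found in 2 of 163 H49-only and 4 of 252 WT-only regions. Over all regions they were found in 127 of 13827. The reverse, both lists of WT and none of H49, was found in 3 of 252 WT-only regions, no H49-only region and 63 of all 13827 regions. Shared regions, which have higher −log10 p, were called in 60.1% to 69.7% of cases per desiccation library, with 268 of 755 (35.5%) called in all 4 and 83 (10.99%) in none.

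**Figure D5:**
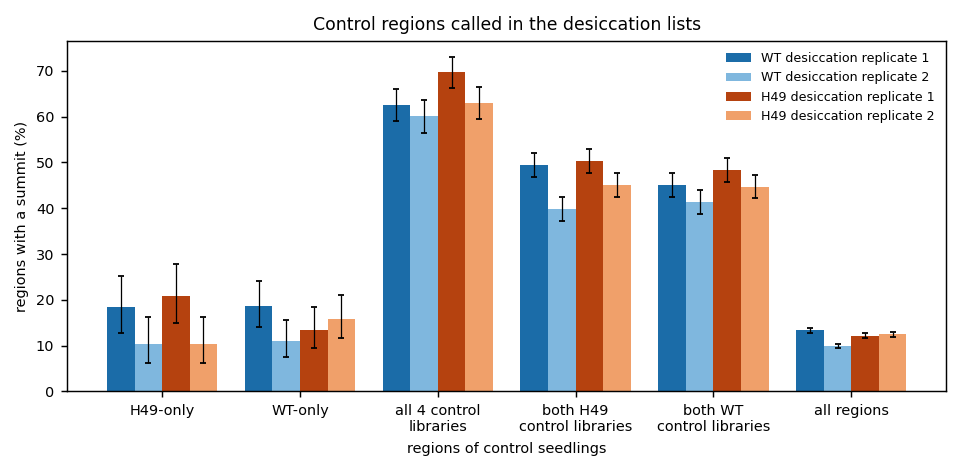
Percentage of control regions of each kind (x axis) that had a summit within 200 bp in each of the 4 desiccation lists (y axis), with exact 95% binomial intervals as error bars. H49-only and WT-only regions lie between 10.4% and 20.9% in all 4 libraries of both genotypes, and shared regions between 60.1% and 69.7%.

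A small group of one-sided regions remained in its set under the 5 alternative settings named above, which do not use the desiccation lists. It held 20 of the 163 H49-only regions and 18 of the 252 WT-only regions, against 388 of the 755 shared regions. The settings do not bear alike on the sets, since wider merging can take out a one-sided region but never a shared one. At 500 bp all 755 shared regions stayed, against 73 of the H49-only and 164 of the WT-only regions. The 20 H49-only regions lay on 11 chromosomes, and their median −log10 p was 10.7 in H49 replicate 1 and 19.6 in replicate 2. Wider merging, at 1000 bp, left 14 of the 20 in the set, and the top 500 summits of each list left 4. Under desiccation 7 of them were found in H49 alone, 2 in WT alone, 4 in both and 7 in neither, a description of a group picked after its values were seen. The shares of all regions, given above, are the background to these counts. All 7 found in H49 alone were called by H49 desiccation replicate 1 and none by replicate 2, so their recurrence rests on that library. Chr1:36214129-36214369 (10.1 and 96.3 in H49 control), Chr8:18992969-18993227 (8.82 and 37.0), Chr12:16855486-16855757 (10.2 and 33.5) and Chr1:32414231-32414466 (12.8 and 10.7) were among these 7 beside 3 regions named above. The nearest WT control summit was 14640 bp or more from each of the 7.

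Of the 18 WT-only regions of this kind, 14 stayed in the set at 1000 bp and 1 with the top 500 summits. Among the 18, 4 were found under desiccation in WT alone, 4 in H49 alone, 1 in both and 9 in neither. Chr2:26143971-26144238 was the only one of them called in both WT desiccation libraries and in no H49 library. Its −log10 p was 15.3 and 15.5 in the WT control libraries, and the nearest H49 control summit was 11732 bp away. It was singled out after its values were seen, and neither the gene it lies at nor its position relative to OsHOX24 itself was analysed here.

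One-sided and shared regions were spread over all 12 chromosomes, with differences in proportion. Chromosome 12 held 74 of the 755 shared regions (9.80%) but 3.62% of all regions, and 7 H49-only (4.29%) and 6 WT-only regions (2.38%). On chromosome 12 the H49-only regions were 6.60% of those that both H49 libraries called, the lowest share of any chromosome, and on chromosome 8 they were 16.9%, the highest. The WT-only share of regions called in both WT libraries ran from 6.06% on chromosome 12 to 24.3% on chromosome 7. Chromosome 1 had the largest number of shared regions, 142 (18.8%), and of H49-only regions, 32 (19.6%), against 18.3% of all regions. WT-only regions numbered 39 there (15.5%) and 40 on each of chromosomes 2 and 3. Bins of 100 kb that held at least 0.5% of the summits of any of the 4 lists numbered 14, and they contained 69 shared regions (9.14%), 10 WT-only regions (3.97%) and no H49-only region, against 3.65% of all regions. H49-only regions lay within 1000 bp of a shared region in 13 of 163 cases (7.98%), WT-only regions in 7 of 252 (2.78%) and regions of a single library in 2.58%.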

How the data were processed

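Summit lists of 4 ChIP-seq libraries (WT and H49 control, 2 replicates each) were compared, with the 4 desiccation lists as a check; inputs were not used here. Per the series' design text, the authors quality-filtered reads (NGS QC Toolkit), aligned them to MSU version 7 (Bowtie2) and called peaks with MACS2, whose version the submitters' processing notes give as 2.1.1.20160309. The version of Bowtie2, any use of inputs and the place of the Bedops step are not stated in the sources at hand. The authors deposited 1 list per library, with the −log10 p of each summit, a unit read from the list format and a lowest value near 3. In the 4 lists 2 peak names were damaged, and their lines were kept.

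Summits were merged into regions with Python 3.11.15 and pandas 2.3.3, checked on planted simulated regions. Members and lists were chosen with earlier results of these data known. The named regions were the 8 of each set whose poorest rank in the calling libraries was best; others are marked or listed as members of a described group. Genes and motifs were not analysed here, as no annotation or sequence of the files' build was used. No test was made, since 2 libraries face 2; intervals for shares are exact binomial. Alternatives changed the merging distance, the summits used, the lists that build regions and the libraries.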

Additional observations from a re-analysis of the deposited data

Results flagged for a closer look

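Outside the 12 nuclear chromosomes, on the sequences named ChrUn and ChrSy that entered no comparison, WT control replicate 2 had 10 summits and H49 control replicate 2 had 9, while the replicate 1 lists had 3 each.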

How the results depend on the processing

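Sizes of the 3 sets depended on the settings, and shared regions less than one-sided ones. That contrast arises partly by construction, since wider merging cannot remove a shared region. H49-only regions (163) numbered 97 with summits up to 500 bp apart merged, 56 at 1000 bp and 65 in the upper 50% of each list. WT-only regions (252) numbered 129 with equal numbers of top summits and 93 in the upper 50%, and shared regions (755) numbered 454 there. With the top 500, 1000 and 2000 summits there were 11, 32 and 103 H49-only, 2, 22 and 84 WT-only, and 224, 324 and 461 shared regions. The top-number settings and the 1000 bp distance were chosen after seeing the data. Their counts fall partly because fewer summits enter. Leaving out 1 library, so that 1 library stood for its genotype, loosened the rule and raised the counts by construction. It gave 278 to 1739 H49-only, 443 to 6414 WT-only and 834 to 1079 shared regions. The highest numbers came without H49 replicate 2 and without WT replicate 2. The other counts were within 1.5 times the reported ones, for merging at 100 bp, a −log10 p of at least 5, regions built from 8 lists and leaving out dense bins. The ratio of list lengths ran from 0.405 to 1.195 over the left-out libraries, turning at 1.195 without WT replicate 1. WT-only regions were called in WT desiccation replicate 1 in 27.1% of cases with equal numbers of top summits and in 11.6% with merging at 100 bp; at 100 bp the shares were 7.41% in WT desiccation replicate 2 and 11.6% in H49 desiccation replicate 2. The other desiccation shares stayed within the intervals of the reported ones. With the replicate number as a replicate block the ratio of list lengths was 0.696 as before, by construction, from 0.453 within replicate 1 and 1.07 within replicate 2, which point opposite ways; the pairing rests on a number alone. No paired analysis was possible because the counts of regions come from no test. Alternatives on gene positions and motifs were not run, as no genome or annotation of the files' build was used. Read depth behind each list is unknown, so no detection limit could be given.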
